A study of Homo sapiens with 12 samples.

Results

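The expression of 38 genes of the autophagy machinery was examined in 12 RNA sequencing libraries of MV411 and MOLM13, established human acute myeloid leukaemia cell lines in which FLT3, a gene for a receptor tyrosine kinase, holds an internal tandem duplication. The genes were taken as a list by symbol out of the 36041 genes of the count table, without regard to their level, and each of the 38 symbols was found. All 38 passed the filter on low counts that kept 21438 genes for testing. The 4 groups, with 3 libraries each, were MV411 cells given SGI-7079, MV411 cells given the solvent DMSO, MOLM13 cells given SGI-7079 and MOLM13 cells given DMSO. SGI-7079 is a kinase inhibitor first described against AXL, a receptor kinase, which the study put forward as an FLT3 inhibitor, and it was used at 10 nM for 24 h. The labels give no dose or time for DMSO. The study asked how SGI-7079 acts on transcription in these cells. The labels call the libraries separate samples but name no separate cultures, so that p-values measure the spread between these samples only, which may be technical. Each line stands for 1 leukaemia.

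Autophagy encloses cytoplasm in a double membrane, the autophagosome, which then fuses with the lysosome. A kinase complex around ULK1 or ULK2 starts the process and is held inactive by the nutrient-sensing kinase complex mTORC1, and a lipid kinase complex around PIK3C3 then marks the membrane with the lipid PI3P. Proteins that bind PI3P or carry lipid let the membrane grow, a ubiquitin-like conjugation system couples ATG8 proteins (the LC3 and GABARAP families) to it, and receptors such as SQSTM1 tie cargo to the ATG8 proteins. Messenger RNA levels do not measure the flow of cargo through this pathway.

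Libraries held 52352252 to 61862017 counts. Each of the 9 myeloid leukaemia markers examined reached 1 CPM, counts scaled to library size,, whereas none of the erythroid, T cell, fibroblast and epithelial markers in the table did. Of the B cell markers, 4 reached 1 CPM, the highest being PAX5 at up to 15.8 CPM in MOLM13. Mitochondrial ribosomal RNA made up 0.837% ± 0.027 of counts in MV411 SGI-7079 libraries and 0.406% ± 0.007 in MV411 DMSO libraries, and 0.94% ± 0.02 in MOLM13 SGI-7079 libraries and 0.534% ± 0.015 in MOLM13 DMSO libraries (SD, n = 3). The summed level of 12 monocyte markers was 374 ± 6.96 CPM in MV411 SGI-7079 and 165 ± 12.5 CPM in MV411 DMSO, and 239 ± 28.0 CPM in MOLM13 SGI-7079 and 126 ± 1.46 CPM in MOLM13 DMSO (SD, n = 3). Only 7 of these markers reached 1 CPM, and the list did not move as a whole. Of 10 tested markers, CSF1R, CD68 and ITGAM rose in both lines, FCGR1A, S100A8 and S100A9 fell in MV411, and VCAN and S100A9 fell in MOLM13, with a median log2 fold change of 0.20 in MV411 and 0.07 in MOLM13. Both measures moved with the treatment, and their part in the results on autophagy genes was not tested. In bulk RNA, fewer cells of a type and less RNA per cell cannot be told apart.

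Promoter windows of 300 bases, running 250 bases before to 50 after the start site, were matched in RefSeq (GRCh38.p14) for 34 of the 38 genes, in 42 windows. UVRAG, BNIP3L, RB1CC1 and ATG4D had no entry. Windows are shown for the gene that rose most in MV411 (GABARAPL1), for a gene that rose in both lines (ATG14), for one that fell in both (ATG3) and for CALCOCO2. CALCOCO2 was called in opposite directions in the lines, although its MOLM13 call was lost under 9 of 21 alternatives. The windows are chr12:10212627-10212926 on the plus strand, chr14:55411781-55412080 on the minus strand, chr3:112561913-112562212 on the minus strand and chr17:48830785-48831084 on the plus strand. In the deposited table (hg38) the genes themselves lie at chr12:10212458-10223128 (GABARAPL1), chr14:55366391-55411830 (ATG14), chr3:112532510-112561962 (ATG3) and chr17:48831018-48866522 (CALCOCO2). Each is written 5′ to 3′ along its gene, and capitals mark the motifs searched on both strands.
GABARAPL1: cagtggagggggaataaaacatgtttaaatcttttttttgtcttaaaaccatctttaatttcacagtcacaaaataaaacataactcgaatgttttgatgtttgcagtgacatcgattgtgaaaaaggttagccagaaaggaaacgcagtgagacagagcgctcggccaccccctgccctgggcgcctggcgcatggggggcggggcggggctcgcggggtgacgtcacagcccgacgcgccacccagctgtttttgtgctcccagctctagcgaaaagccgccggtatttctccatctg
ATG14: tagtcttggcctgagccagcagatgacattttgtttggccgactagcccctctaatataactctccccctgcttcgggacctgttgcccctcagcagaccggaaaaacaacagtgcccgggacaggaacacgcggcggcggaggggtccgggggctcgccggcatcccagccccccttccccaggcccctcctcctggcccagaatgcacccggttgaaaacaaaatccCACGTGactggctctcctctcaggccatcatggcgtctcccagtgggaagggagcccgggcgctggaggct
ATG3: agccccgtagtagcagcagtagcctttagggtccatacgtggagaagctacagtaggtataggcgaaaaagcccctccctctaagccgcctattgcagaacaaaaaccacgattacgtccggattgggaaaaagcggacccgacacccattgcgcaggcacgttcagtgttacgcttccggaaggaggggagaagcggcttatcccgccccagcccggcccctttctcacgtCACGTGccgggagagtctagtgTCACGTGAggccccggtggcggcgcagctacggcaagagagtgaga
CALCOCO2: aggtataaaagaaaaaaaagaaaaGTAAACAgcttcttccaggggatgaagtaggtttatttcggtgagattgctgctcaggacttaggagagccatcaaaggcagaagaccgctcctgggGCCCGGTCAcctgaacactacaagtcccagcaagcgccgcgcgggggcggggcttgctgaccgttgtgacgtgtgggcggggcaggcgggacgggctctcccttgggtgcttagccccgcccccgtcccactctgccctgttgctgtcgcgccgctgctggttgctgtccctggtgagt

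The windows were searched for 4 motifs on both strands. The FOXO motif GTAAACA lay in the window of 1 member, CALCOCO2, starting 226 bases before the start site, and in 3.42% of all 35116 windows. The E-box CACGTG was found in ATG14, ATG3 and BNIP3, and in 7.26% of all windows. Its longer form TCACGTGA, which contains CACGTG, was found in ATG3 alone among the members, and in 0.98% of all windows. The antioxidant response motif TGACNNNGC was found in ATG101, CALCOCO2 and MAP1LC3B, and in 13.3% of all windows. None of the 4 was present in the GABARAPL1 window shown. A match is a description of these letters and says nothing about binding.

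SGI-7079 moved the autophagy genes in both directions in both lines. In MV411, 20 of the 38 genes rose and 9 fell (edgeR quasi-likelihood test, adjusted p under 0.05 over all genes tested), where 27.2% of all tested genes rose and 24.3% fell. In MOLM13, 18 rose and 8 fell, where 23.2% of all tested genes rose and 23.6% fell. Under upper-quartile scaling, 23 genes rose and 4 fell in MV411, and 20 rose and 6 fell in MOLM13. That scaling also raised the median log2 fold change of all genes to 0.21 in MV411 and 0.16 in MOLM13, against 0.11 and 0.05 with TMM scaling. The share of higher genes among all those called became 60.3% in MV411, against 52.8%, and 60.2% in MOLM13, against 49.6%. The median of the 38 log2 fold changes was 0.20 in MV411 and 0.10 in MOLM13, beside 0.11 and 0.05 over all genes tested in these lines. The MV411 median of the 38 was 0.0852 without MV411 DMSO 1. It was 0.126 to 0.138 without any 1 of the 6 MOLM13 libraries, MV411 DMSO 2 or MV411 SGI-7079 1. In all these fits the TMM reference library changed, and the median of all genes in MV411 was lower too, at 0.030 to 0.056. The MV411 median of the 38 lay closer to the MOLM13 median in these fits, and below its 0.107 without MV411 DMSO 1. With all libraries, the MV411 and MOLM13 medians of the 38 were 0.209 and 0.117 with DESeq2 size factors. They were 0.297 and 0.204 with upper-quartile scaling. What moved the gap was not tested. The summed level of the 38 genes was 2797 ± 19.5 CPM in MV411 SGI-7079 and 2248 ± 22.2 CPM in MV411 DMSO, and 2226 ± 2.18 CPM in MOLM13 SGI-7079 and 1984 ± 11.9 CPM in MOLM13 DMSO (SD, n = 3).

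The 16 genes that rose in both lines were ATG13, ATG14, PIK3C3, UVRAG, WIPI1, ATG2A, ATG2B, ATG4C, ATG16L2, MAP1LC3B, GABARAP, GABARAPL1, GABARAPL2, SQSTM1, NBR1 and BNIP3L. Of all tested genes, 17.0% rose in both lines. The 5 genes that fell in both were ULK1, ATG101, PIK3R4, ATG3 and ATG5, and 18.5% of all tested genes did so. WIPI2 and CALCOCO2 passed the test in opposite directions. Changes were mostly small. Past an absolute log2 fold change of 1, the genes that rose were GABARAPL1 and WIPI1 in MV411, where 11.0% of tested genes did, and GABARAPL1 and BNIP3L in MOLM13, where 8.94% did. ULK2 was the 1 gene that fell past this size, in MOLM13, where 3.44% of tested genes did. In MV411 the 9 genes that fell did so by less, at most by the -0.62 of ATG3, where 6.08% of tested genes fell past this size. Groups of libraries did not overlap for 21 higher and 10 lower genes in MV411, where 33.8% and 27.4% of all tested genes were so placed, and for 18 higher and 8 lower genes in MOLM13, where 28.7% and 27.4% were.

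**Figure D1:**
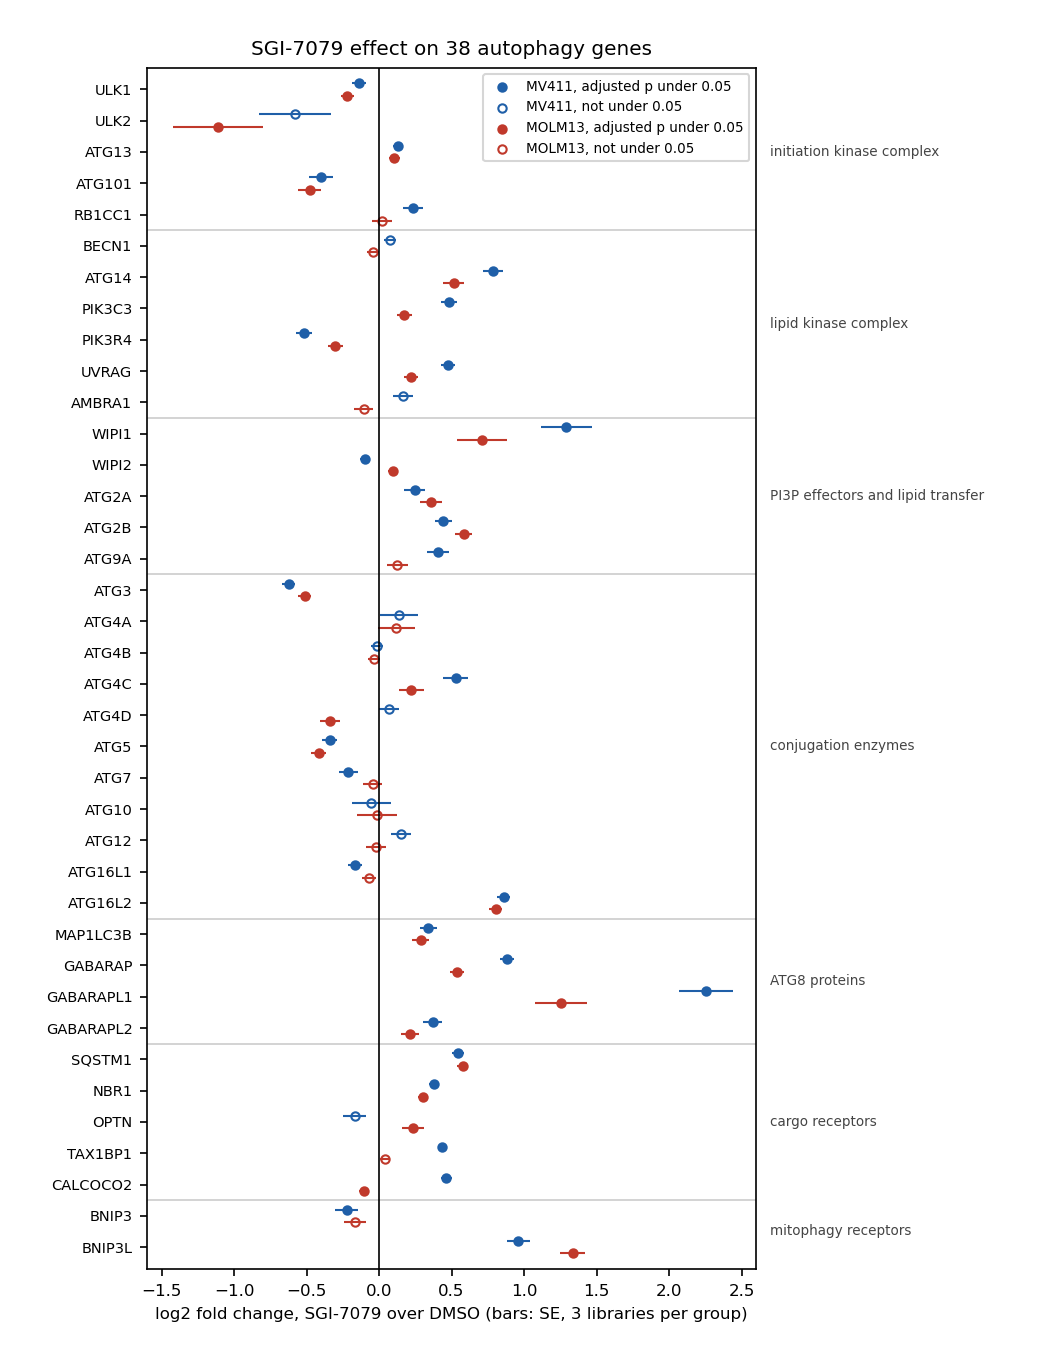
Log2 fold change of SGI-7079 over DMSO (horizontal axis) for the 38 autophagy genes by role, in MV411 (blue, upper point) and MOLM13 (red, lower point), with SE bars from 3 libraries per group and filled points where the adjusted p was under 0.05. The 4 listed ATG8 genes lie to the right of 0 in both lines, with GABARAPL1 at 2.26 in MV411 and 1.26 in MOLM13. ATG101, PIK3R4, ATG3 and ATG5 lie to the left in both.

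Of the 5 genes of the ULK complex that starts autophagy, 2 rose and 2 fell in MV411, and 1 rose and 3 fell in MOLM13. Of all tested genes, 27.2% rose and 24.3% fell in MV411, and 23.2% rose and 23.6% fell in MOLM13. ATG101, which stabilises ATG13 in the complex, had 20.9, 22.9 and 21.7 CPM in MV411 SGI-7079 libraries against 28.0, 27.3 and 31.1 CPM in MV411 DMSO libraries. In MOLM13, ATG101 had 19.8, 16.9 and 17.5 CPM with SGI-7079 against 27.2, 24.1 and 24.3 CPM with DMSO. Treated libraries lay below DMSO libraries in both lines, with log2 fold changes of -0.40 ± 0.08 in MV411 (SE, edgeR adjusted p = 0.000949) and -0.48 ± 0.08 in MOLM13 (adjusted p = 0.000269). ULK1, the kinase itself, fell by 0.14 on the log2 scale in MV411 (edgeR adjusted p = 0.0251) and by 0.22 in MOLM13 (adjusted p = 0.00162). The MV411 call was lost without MV411 SGI-7079 library 3 (-0.10, edgeR adjusted p = 0.115), and upper-quartile scaling and the limma test on FPKM ended the call in both lines, as did the filter at 1 CPM in MV411. FPKM is the authors' level per length of gene and depth of library.

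ULK2, the second such kinase, had 6.82, 6.55 and 8.54 CPM in MV411 SGI-7079 libraries against 12, 10.2 and 10.5 CPM in MV411 DMSO libraries. In MOLM13, ULK2 had 0.297, 0.59 and 0.203 CPM with SGI-7079 against 0.903, 0.615 and 0.863 CPM with DMSO. The treated libraries were lower without overlap in both lines, at a level in MOLM13 that rests on 11 to 49 counts per library. The log2 fold change was -1.11 ± 0.31 in MOLM13 (SE, edgeR adjusted p = 0.00938), a 2.16-fold fall. With the MOLM13 libraries fitted alone the value was about as large but not called (-1.12, edgeR adjusted p = 0.0654), and limma on FPKM, whose pseudocount is above these levels, gave -0.35 (adjusted p = 0.11). In MV411 it was -0.58 ± 0.25 and missed the threshold (edgeR adjusted p = 0.0705). It passed there without any 1 of 5 MOLM13 libraries, namely DMSO 1 and 2 and SGI-7079 1, 2 and 3 (edgeR adjusted p = 0.00893 to 0.049). In these 5 fits the TMM reference library had changed. The MV411 fall was also called by DESeq2, by limma on FPKM and by edgeR with the MV411 libraries fitted alone (-0.64 to -0.43, adjusted p = 0.00252 to 0.0466).

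ATG13, the regulatory subunit, rose by 0.13 ± 0.03 in MV411 and by 0.11 ± 0.04 in MOLM13 (log2 fold change ± SE, edgeR adjusted p = 0.00618 and 0.0236). The MV411 call was lost without any 1 of 9 libraries, which are all 6 of MOLM13, MV411 DMSO 1 and 2 and MV411 SGI-7079 1 (log2 fold change 0.03 to 0.06, edgeR adjusted p = 0.176 to 0.512). These 9 fits were those in which the TMM reference library changed. The MOLM13 call was lost without MOLM13 DMSO 1 or 2 or SGI-7079 3 (0.09 to 0.10, edgeR adjusted p = 0.0607 to 0.0704). RB1CC1, the scaffold also named FIP200, averaged 70.0 ± 2.47 CPM in MV411 SGI-7079 and 59.4 ± 4.44 CPM in MV411 DMSO (SD, n = 3), a log2 fold change of 0.24 ± 0.07 (SE, edgeR adjusted p = 0.01). That call did not hold without any 1 of 7 libraries, MOLM13 DMSO 1, 2 and 3, MOLM13 SGI-7079 1 and 3, MV411 DMSO 1 and MV411 SGI-7079 1 (0.11 to 0.19, edgeR adjusted p = 0.0553 to 0.237). These 7 fits, too, were among those with a changed TMM reference library. In MOLM13 the RB1CC1 difference was 0.02 with a 95% interval of ± 0.135.

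Of the 6 genes of the lipid kinase complex, 3 rose and 1 fell in each line, where 27.2% and 24.3% of all tested genes did in MV411 and 23.2% and 23.6% in MOLM13. ATG14, the subunit that directs the complex to autophagy, had 46.3, 43.0 and 45.9 CPM in MV411 SGI-7079 libraries against 27.4, 27.2 and 23.8 CPM in MV411 DMSO libraries. In MOLM13, ATG14 had 28.3, 28.4 and 26.9 CPM with SGI-7079 against 20.4, 17.8 and 20.3 CPM with DMSO. Every treated library lay above every DMSO library of its line, and the log2 fold change was 0.79 ± 0.07 in MV411 (SE, edgeR adjusted p = 5.29e-07) and 0.52 ± 0.07 in MOLM13 (adjusted p = 4.62e-05). FBXO34, which overlaps 1047 of the 5025 exon bases of ATG14 on the other strand, fell in both lines. PIK3C3, the catalytic subunit that makes PI3P, rose by 0.48 ± 0.05 in MV411 and by 0.18 ± 0.05 in MOLM13 (edgeR adjusted p = 3.1e-06 and 0.0139). Its MOLM13 call was lost without MOLM13 DMSO 2 or SGI-7079 1 (0.16, edgeR adjusted p = 0.0525 to 0.0564). UVRAG, which takes the place of ATG14 in another form of the complex, rose by 0.47 ± 0.05 in MV411 and by 0.22 ± 0.05 in MOLM13 (edgeR adjusted p = 1.33e-06 and 0.00171).

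PIK3R4, the regulatory subunit that holds PIK3C3, went the other way. It had 38.9, 33.8 and 37.0 CPM in MV411 SGI-7079 libraries against 55.2, 50.8 and 51.1 CPM in MV411 DMSO libraries. In MOLM13, PIK3R4 had 49.5, 48.4 and 47.0 CPM with SGI-7079 against 58.4, 61.0 and 59.2 CPM with DMSO. Groups did not overlap in either line, and PIK3R4 fell by 0.52 on the log2 scale in MV411 and by 0.30 in MOLM13 (edgeR adjusted p = 2.03e-06 and 0.000362). BECN1, the scaffold Beclin 1, averaged 92.4 ± 5.56 CPM in MV411 SGI-7079 and 87.6 ± 0.68 CPM in MV411 DMSO, and 75.7 ± 2.57 CPM in MOLM13 SGI-7079 and 78.0 ± 1.32 CPM in MOLM13 DMSO (SD, n = 3). Its log2 differences, 0.08 and -0.04 with 95% intervals of ± 0.08 each, did not pass the test in either line. AMBRA1, a regulator of Beclin 1, had differences of 0.16 in MV411 and -0.11 in MOLM13, and also passed in neither line. In MV411, AMBRA1 passed as higher without MV411 DMSO 3 or SGI-7079 2 (0.22, edgeR adjusted p = 0.0167 to 0.0212) and under 7 other settings, and BECN1 passed with upper-quartile scaling, with the filter at 1 CPM and with limma on FPKM.

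Of the 5 genes that act on or with PI3P, 4 rose and 1 fell in MV411, where 27.2% of all tested genes rose and 24.3% fell. In MOLM13, 4 of the 5 rose, where 23.2% of all tested genes did. WIPI1, a PI3P-binding protein, had 10.2, 8.35 and 9.44 CPM in MV411 SGI-7079 libraries against 3.27, 4.38 and 3.76 CPM in MV411 DMSO libraries. In MOLM13, WIPI1 had 6.56, 7.81 and 5.20 CPM with SGI-7079 against 3.74, 3.76 and 4.46 CPM with DMSO. Treated libraries were higher without overlap, 2.45-fold in MV411 (log2 fold change 1.29 ± 0.17 SE, edgeR adjusted p = 2.55e-05) and 1.64-fold in MOLM13 (0.71 ± 0.17, adjusted p = 0.00399). ARSG, a sulfatase gene that overlaps 829 of the 3403 exon bases of WIPI1 on the other strand, rose as well, by 0.51 in MV411 and 0.57 in MOLM13 (edgeR adjusted p = 0.000318 and 0.000156). The labels do not say whether counting used the strand, so reads of the pair may be shared.

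ATG2B, which with ATG2A carries lipid to the growing membrane, had 48.7, 51.6 and 51.1 CPM in MV411 SGI-7079 libraries against 37.4, 38.6 and 35.1 CPM in MV411 DMSO libraries. In MOLM13, ATG2B had 47.7, 45.4 and 45.6 CPM with SGI-7079 against 30.2, 33.3 and 29.1 CPM with DMSO. It was thus higher in each treated library, by 0.44 ± 0.06 in MV411 and 0.58 ± 0.06 in MOLM13 (log2 ± SE, edgeR adjusted p = 1.59e-05 and 1.65e-06). ATG2A rose by 0.36 ± 0.08 in MOLM13 (edgeR adjusted p = 0.00141) and by 0.25 ± 0.08 in MV411 (adjusted p = 0.0143). The MV411 call of ATG2A was lost without any 1 library except MV411 DMSO 3 and MV411 SGI-7079 3 (0.13 to 0.20, edgeR adjusted p = 0.052 to 0.227). In all of these fits but that without MV411 SGI-7079 2, the TMM reference library had changed.

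ATG9A, the scramblase carried on the vesicles that seed the membrane, rose by 0.41 ± 0.07 in MV411 (edgeR adjusted p = 0.000334), while its difference of 0.13 ± 0.07 in MOLM13 missed the threshold (adjusted p = 0.184). It passed in MOLM13 without MOLM13 DMSO 3 (0.21, edgeR adjusted p = 0.0277), with upper-quartile scaling (0.23, adjusted p = 0.0248) and with limma on FPKM (0.22, adjusted p = 0.0315). A gene model on the same strand, ENSG00000284820, shares 1833 of the 4724 exon bases of ATG9A and rose in both lines, so that reads may be split between them. WIPI2, which binds PI3P and brings in ATG16L1, had 105, 104 and 101 CPM in MV411 SGI-7079 libraries against 107, 109.7 and 114 CPM in MV411 DMSO libraries. In MOLM13, WIPI2 had 87.6, 83.9 and 87.7 CPM with SGI-7079 against 80.3, 81.9 and 80.4 CPM with DMSO. Groups did not overlap in either line, yet the effects were small and opposite, -0.10 ± 0.03 in MV411 and 0.10 ± 0.03 in MOLM13 (edgeR adjusted p = 0.0242 and 0.0288). The MV411 call was lost without MV411 DMSO 3 or SGI-7079 2 or 3 (-0.10 to -0.07, edgeR adjusted p = 0.0561 to 0.103), and the limma test on FPKM turned it to 0.01. The MOLM13 call was lost without MOLM13 DMSO 1 or 3 or SGI-7079 1 or 3 (0.09 to 0.10, edgeR adjusted p = 0.0514 to 0.0679).

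Of the 11 genes of the conjugation system, 2 rose and 4 fell in MV411 and 2 rose and 3 fell in MOLM13, which is near the shares of all tested genes (27.2% and 24.3% in MV411, 23.2% and 23.6% in MOLM13). ATG16L2, a relative of the ATG16L1 subunit of the ATG12-ATG5 conjugate, had the largest rise among them. It had 226, 238 and 238 CPM in MV411 SGI-7079 libraries against 130.0, 126 and 131 CPM in MV411 DMSO libraries. In MOLM13, ATG16L2 had 215, 228 and 213 CPM with SGI-7079 against 119.6, 134 and 122 CPM with DMSO. Treated and DMSO libraries were far apart in both lines, with log2 fold changes of 0.86 ± 0.04 in MV411 and 0.81 ± 0.04 in MOLM13 (SE, edgeR adjusted p = 1.6e-09 and 5.5e-09). FCHSD2 overlaps 680 of the 8519 exon bases of ATG16L2 on the other strand and rose by 0.32 and 0.16.

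ATG3, the E2-like enzyme that passes ATG8 proteins to lipid, had 61.5, 55.1 and 54.3 CPM in MV411 SGI-7079 libraries against 86.8, 90.5 and 85.9 CPM in MV411 DMSO libraries. In MOLM13, ATG3 had 70.3, 71.2 and 68.0 CPM with SGI-7079 against 99.3, 99.1 and 101 CPM with DMSO. Each treated library lay below each DMSO library, and ATG3 fell by 0.62 on the log2 scale in MV411 and by 0.51 in MOLM13 (edgeR adjusted p = 4.75e-08 and 4.74e-07). ATG5, the target of ATG12 conjugation, fell by 0.34 in MV411 and by 0.42 in MOLM13 (edgeR adjusted p = 0.000101 and 1.81e-05). Both calls held under every alternative tried.

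ATG7, the E1-like enzyme, and ATG16L1 fell in MV411 alone among the lines by the test, by 0.21 and by 0.17 on the log2 scale (edgeR adjusted p = 0.0142 and 0.0105). The differences between lines for these genes were -0.17 and -0.10 and did not pass (edgeR adjusted p = 0.238 and 0.389), although that of ATG7 passed without MOLM13 DMSO 3 or MV411 DMSO 1 (-0.32 to -0.31, adjusted p = 0.0178 to 0.0226). The ATG7 call was lost without MV411 DMSO 3 or SGI-7079 3 (-0.19 to -0.16, edgeR adjusted p = 0.0549 to 0.071), and both calls were lost with upper-quartile scaling and with limma on FPKM. ATG10, the E2-like enzyme for ATG12, and ATG12 itself passed in neither line, with differences of -0.05 and 0.15 in MV411 and of -0.01 and -0.02 in MOLM13. ATG12 passed as higher in MV411 with upper-quartile scaling, the filter at 1 CPM and limma on FPKM (0.19 to 0.25, adjusted p = 0.00813 to 0.029).

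The 4 ATG4 proteases, which trim ATG8 proteins and release them from lipid, did not move alike. ATG4C rose by 0.53 ± 0.09 in MV411 (edgeR adjusted p = 0.000143) and by 0.22 ± 0.09 in MOLM13 (adjusted p = 0.0497). The MOLM13 call was at the threshold and was lost without any 1 library except MV411 DMSO 3 and MV411 SGI-7079 2 (0.17 to 0.26, edgeR adjusted p = 0.0502 to 0.182). ATG4D fell by 0.34 in MOLM13 (edgeR adjusted p = 0.00111), with a difference of 0.07 ± 0.07 in MV411 that did not pass (adjusted p = 0.42). ATG4A had differences of 0.14 ± 0.13 and 0.12 ± 0.13, and ATG4B of -0.01 ± 0.04 and -0.04 ± 0.04 (log2 ± SE in MV411 and in MOLM13). The 95% interval of the ATG4B effect was ± 0.08 in each line.

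Each of the 4 ATG8 genes among the 38 rose in both lines, where 17.0% of all tested genes did. GABARAPL1 had the largest change in MV411 of the 38 genes, at 20.7, 18.5 and 17.8 CPM in MV411 SGI-7079 libraries against 2.82, 4.04 and 5.08 CPM in MV411 DMSO libraries. In MOLM13, GABARAPL1 had 10.9, 9.27 and 11.2 CPM with SGI-7079 against 3.87, 4.29 and 4.98 CPM with DMSO. The DMSO libraries of both lines lay at similar low levels and the treated ones well above them. GABARAPL1 rose 4.78-fold in MV411 (log2 fold change 2.26 ± 0.19 SE, edgeR adjusted p = 1.84e-07) and 2.39-fold in MOLM13 (1.26 ± 0.18, adjusted p = 6.1e-05).

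GABARAP, the family's founding gene, had 216, 205 and 197 CPM in MV411 SGI-7079 libraries against 112, 112 and 112 CPM in MV411 DMSO libraries. In MOLM13, GABARAP had 73.1, 74.6 and 80.7 CPM with SGI-7079 against 52.8, 49.3 and 55.3 CPM with DMSO. Groups did not overlap in either line, at log2 fold changes of 0.88 ± 0.05 in MV411 and 0.54 ± 0.05 in MOLM13 (SE, edgeR adjusted p = 2.87e-09 and 8.65e-07). MAP1LC3B, which encodes LC3B, had 47.2, 45.5 and 47.2 CPM in MV411 SGI-7079 libraries against 35.9, 37.96 and 36.7 CPM in MV411 DMSO libraries. In MOLM13, MAP1LC3B had 33.7, 33.5 and 33.1 CPM with SGI-7079 against 25.7, 26.5 and 30.0 CPM with DMSO. It was higher in every treated library, by 0.34 ± 0.06 in MV411 and 0.29 ± 0.06 in MOLM13 (edgeR adjusted p = 0.000189 and 0.00102). GABARAPL2, also named GATE-16, rose by 0.37 ± 0.06 in MV411 and 0.21 ± 0.06 in MOLM13 (edgeR adjusted p = 0.000247 and 0.0143), the MOLM13 call being lost without MOLM13 SGI-7079 3 (0.17, edgeR adjusted p = 0.0578).

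Compared per length, the ATG8 genes stood at very different levels. GABARAP had 105 ± 4.06 FPKM in MV411 SGI-7079, 53.0 ± 0.42 FPKM in MV411 DMSO, 36.1 ± 1.76 FPKM in MOLM13 SGI-7079 and 23.4 ± 1.29 FPKM in MOLM13 DMSO (SD, n = 3). Of the summed FPKM of the 4 listed ATG8 genes, GABARAP made up 79.2% ± 0.28 in MV411 SGI-7079 and 75.2% ± 0.80 in MV411 DMSO. In MOLM13 it made up 61.5% ± 1.29 with SGI-7079 and 57.7% ± 1.14 with DMSO. GABARAPL1, in spite of its fold change, made up 3.51% ± 0.13 in MV411 SGI-7079 and 1.27% ± 0.36 in MV411 DMSO, and 4.05% ± 0.29 in MOLM13 SGI-7079 and 2.31% ± 0.26 in MOLM13 DMSO. The summed FPKM of the 4 genes was 133 ± 4.65 in MV411 SGI-7079 and 70.4 ± 0.27 in MV411 DMSO, and 58.7 ± 2.55 in MOLM13 SGI-7079 and 40.5 ± 1.44 in MOLM13 DMSO. A gene model on the same strand, ENSG00000262526, shares 691 of the 1951 exon bases of GABARAP, and it was not in the set tested. The near-identical copies MAP1LC3B2 and GABARAPL3 had at most 90 and 5 counts in a library, against at least 1395 for MAP1LC3B and 161 for GABARAPL1. The sources used here do not give how reads that match several genes were counted.

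**Figure D2:**
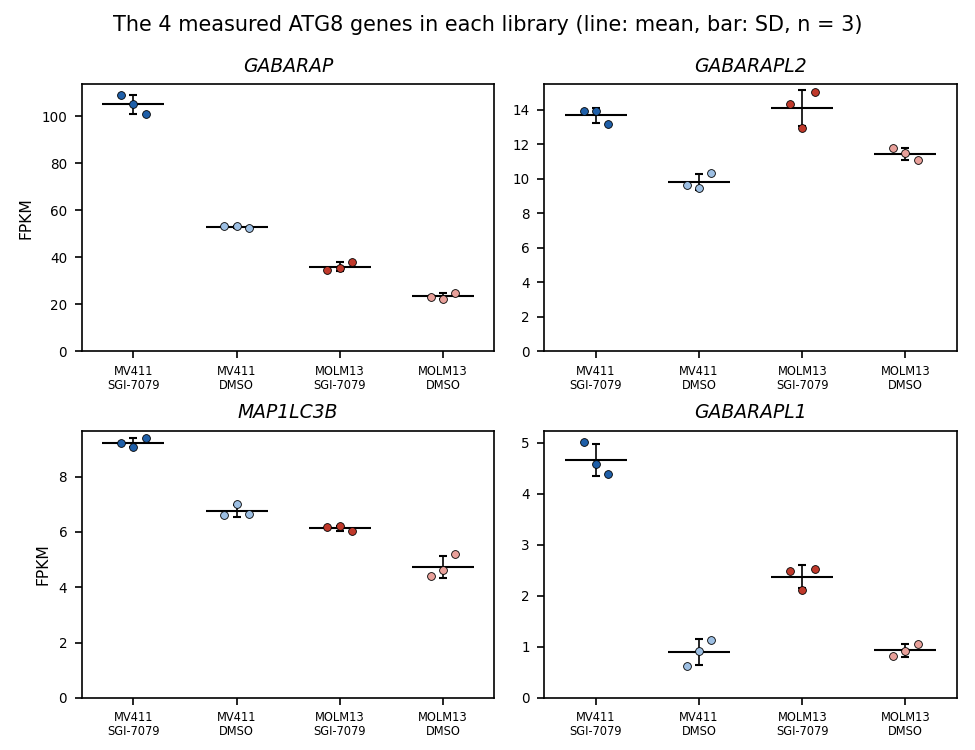
FPKM (vertical axes, each starting at 0) of the 4 listed ATG8 genes in every library of the 4 groups, with lines at the mean and bars of 1 SD (n = 3). All treated libraries lie above the DMSO libraries of their line, and the GABARAP panel reaches 105 FPKM on average in MV411 SGI-7079 against 4.66 FPKM for GABARAPL1 there.

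The cargo receptors, which bind ubiquitin or other marks on cargo and the ATG8 proteins, rose in 4 of 5 cases in MV411. Of all tested genes, 27.2% rose there. In MOLM13, 3 of them rose and 1 fell, where 23.2% and 23.6% of all tested genes did. SQSTM1, or p62, had 248, 239 and 239 CPM in MV411 SGI-7079 libraries against 165, 158 and 174 CPM in MV411 DMSO libraries. In MOLM13, SQSTM1 had 233, 218 and 228 CPM with SGI-7079 against 155, 146 and 154 CPM with DMSO. Treated libraries lay above DMSO libraries in both lines, with log2 fold changes of 0.54 ± 0.04 in MV411 and 0.58 ± 0.04 in MOLM13 (SE, edgeR adjusted p = 6.17e-08 and 5.41e-08). MRNIP overlaps 1582 of the 7535 exon bases of SQSTM1 on the other strand and rose by 0.29 and 0.69. NBR1, a receptor that works with SQSTM1, rose by 0.38 ± 0.04 in MV411 and 0.30 ± 0.04 in MOLM13 (edgeR adjusted p = 7.68e-07 and 1.18e-05).

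CALCOCO2, or NDP52, had 236, 227 and 230.0 CPM in MV411 SGI-7079 libraries against 169.7, 166 and 166 CPM in MV411 DMSO libraries. In MOLM13, CALCOCO2 had 92.9, 96.0 and 100.4 CPM with SGI-7079 against 99.5, 106 and 106 CPM with DMSO. The groups were apart in MV411 but overlapped in MOLM13, and the log2 fold change was 0.47 ± 0.04 in MV411 (SE, edgeR adjusted p = 7.67e-08) and -0.11 ± 0.04 in MOLM13 (adjusted p = 0.0268). The MOLM13 fall was lost without MOLM13 DMSO 2 or 3 or SGI-7079 1 or 2 (-0.10 to -0.07, edgeR adjusted p = 0.0847 to 0.155) and under 5 other settings, among them DESeq2 size factors, upper-quartile scaling and both other filters.

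TAX1BP1, a relative of CALCOCO2, had 161, 165 and 161 CPM in MV411 SGI-7079 libraries against 118, 119 and 123 CPM in MV411 DMSO libraries. In MOLM13, TAX1BP1 had 171, 172 and 169 CPM with SGI-7079 against 166, 173 and 158 CPM with DMSO. It was higher without overlap in MV411 (0.44 ± 0.03, edgeR adjusted p = 8.29e-08), whereas the MOLM13 groups overlapped (0.04 ± 0.03, adjusted p = 0.347). With upper-quartile scaling and with limma on FPKM it passed in MOLM13 too (0.13 to 0.14). OPTN, which also serves in the removal of mitochondria, had 24.2, 26.5 and 23.1 CPM in MV411 SGI-7079 libraries against 28.3, 28.9 and 25.7 CPM in MV411 DMSO libraries. In MOLM13, OPTN had 26.3, 29.9 and 26.7 CPM with SGI-7079 against 22.2, 24.8 and 23.5 CPM with DMSO. It rose in MOLM13 without overlap of the groups (0.23 ± 0.08, edgeR adjusted p = 0.0245), and in MV411 the overlapping groups differed by -0.17 ± 0.08 (adjusted p = 0.0891). The MOLM13 rise was lost without MOLM13 DMSO 1 or 3 or SGI-7079 2 (0.18 to 0.24, edgeR adjusted p = 0.0555 to 0.11). In MV411, OPTN passed as lower without any 1 of the 6 MOLM13 libraries, MV411 DMSO 3 or MV411 SGI-7079 2 (-0.24 to -0.22, edgeR adjusted p = 0.0173 to 0.0467). The TMM reference library had changed in the fits without a MOLM13 library but not in the others.

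The mitophagy receptors BNIP3 and BNIP3L, paralogs of the outer mitochondrial membrane, did not move together. BNIP3L, or NIX, had 84.6, 96.2 and 98.6 CPM in MV411 SGI-7079 libraries against 48.1, 48.5 and 46.9 CPM in MV411 DMSO libraries. In MOLM13, BNIP3L had 62.2, 56.4 and 61.6 CPM with SGI-7079 against 24.2, 26.7 and 20.5 CPM with DMSO. Treated libraries were far above DMSO libraries in both lines, 1.95-fold in MV411 (log2 fold change 0.96 ± 0.08 SE, edgeR adjusted p = 2.35e-07) and 2.52-fold in MOLM13 (1.33 ± 0.08, adjusted p = 1.89e-08). BNIP3 had 10.9, 11.2 and 11.4 CPM in MV411 SGI-7079 libraries against 12.4, 12.8 and 13.8 CPM in MV411 DMSO libraries. In MOLM13, BNIP3 had 33.8, 27.7 and 32.2 CPM with SGI-7079 against 35.8, 34.4 and 35.0 CPM with DMSO. All treated libraries lay below the DMSO libraries of their line. The test called the fall in MV411 (-0.22 ± 0.08, edgeR adjusted p = 0.0295) but not in MOLM13 (-0.17 ± 0.08, adjusted p = 0.091). Without MV411 DMSO 3 or SGI-7079 2 the MV411 call was lost (-0.22 to -0.18, edgeR adjusted p = 0.0676 to 0.109), and without MOLM13 SGI-7079 1 the MOLM13 fall passed (-0.22, edgeR adjusted p = 0.0437).

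**Figure D3:**
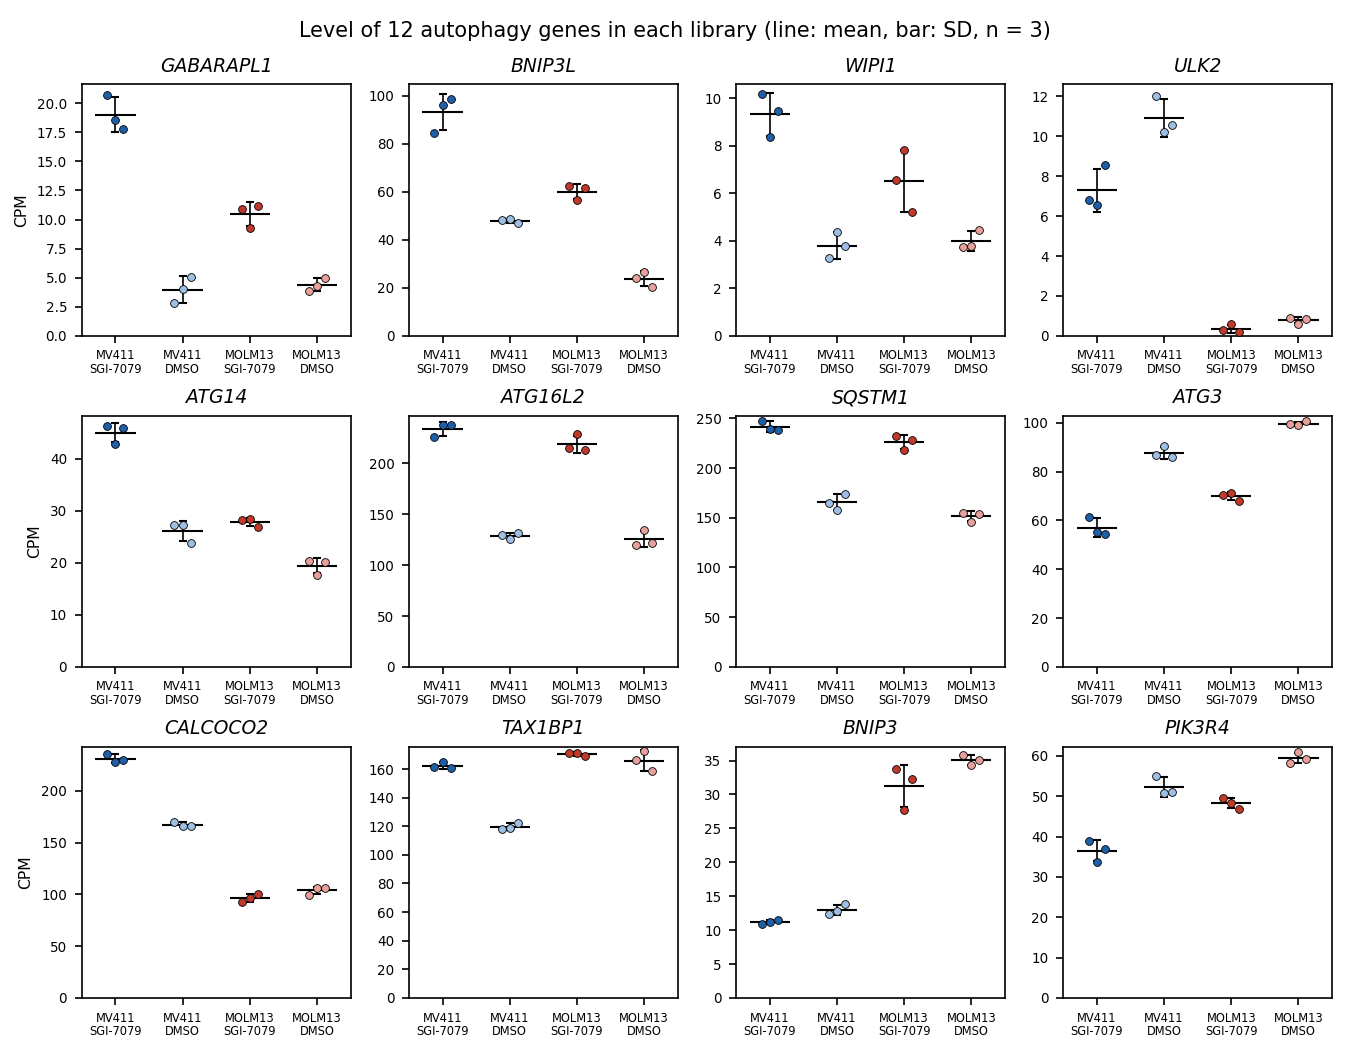
CPM (vertical axes, each starting at 0) of 12 autophagy genes in every library, with MV411 SGI-7079, MV411 DMSO, MOLM13 SGI-7079 and MOLM13 DMSO from left to right, lines at the mean and bars of 1 SD (n = 3). GABARAPL1, BNIP3L, WIPI1, ATG14, ATG16L2 and SQSTM1 are higher in treated libraries of both lines, ATG3 and PIK3R4 lower, and CALCOCO2 and TAX1BP1 differ clearly in MV411 and little in MOLM13.

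The effect of SGI-7079 differed between the lines for 10 of the 38 genes. It was higher in MV411 than in MOLM13 for 7 genes, where 8.85% of all tested genes were so called, and lower for 3, where 11.8% were. CALCOCO2 had a difference of effects (MV411 minus MOLM13) of 0.57 ± 0.05 (SE, edgeR adjusted p = 4.03e-06) and TAX1BP1 of 0.40 ± 0.05 (adjusted p = 5.2e-05). GABARAPL1 had the largest at 1.00 ± 0.25 (edgeR adjusted p = 0.0124), the 1 gene past an absolute value of 1, where 1.8% of tested genes were. GABARAP differed by 0.34 ± 0.07 (edgeR adjusted p = 0.00293). These 4 held under every alternative tried.

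The other differences were less stable. ATG4D (0.41, edgeR adjusted p = 0.00849) was lost without MOLM13 DMSO 2 or 3, MOLM13 SGI-7079 2 or 3, MV411 DMSO 2 or MV411 SGI-7079 1 (0.28 to 0.33, adjusted p = 0.0504 to 0.0722). PIK3C3 (0.31, edgeR adjusted p = 0.00929) was lost without any 1 MOLM13 library or MV411 DMSO 2 (0.19 to 0.25, adjusted p = 0.0586 to 0.12). UVRAG (0.25, edgeR adjusted p = 0.0167) was lost without MOLM13 DMSO 1, 2 or 3, MOLM13 SGI-7079 1 or 3, MV411 DMSO 1 or MV411 SGI-7079 1 (0.14 to 0.19, adjusted p = 0.104 to 0.213). All fits named here for ATG4D, PIK3C3 and UVRAG had a changed TMM reference library. Lower in MV411 were OPTN (-0.40, edgeR adjusted p = 0.019), BNIP3L (-0.37, adjusted p = 0.0353) and WIPI2 (-0.19, adjusted p = 0.00927). OPTN was lost without MV411 SGI-7079 3 (-0.36, edgeR adjusted p = 0.0507), BNIP3L without MV411 DMSO 3 (-0.39, adjusted p = 0.0531), with limma on FPKM and with both replicate blocks (-0.38 to -0.35, adjusted p = 0.0519 to 0.0704), and WIPI2 held throughout. The count of higher genes was 4 without MOLM13 DMSO 2, MOLM13 DMSO 3 or MOLM13 SGI-7079 3, and that of lower genes was 5 without MOLM13 DMSO 2 or 3, MV411 DMSO 1 or MV411 SGI-7079 1. WIPI1 had the second largest difference, 0.58 ± 0.24, which did not pass (edgeR adjusted p = 0.121).

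Some differences that did not pass were near the threshold. PIK3R4 (-0.22, edgeR adjusted p = 0.0622) passed as lower in MV411 in 12 of 20 alternatives. These were no filter, DESeq2, the replicate block within line, and 9 fits without 1 library, namely any of MOLM13, MV411 DMSO 1 or 2 or MV411 SGI-7079 1 (-0.34 to -0.26, edgeR adjusted p = 0.00558 to 0.0364). In all 9 the TMM reference library had changed. AMBRA1 (0.27, edgeR adjusted p = 0.0634) passed in 5 alternatives, among them the fits without MV411 DMSO 3 or SGI-7079 2 (0.33, adjusted p = 0.0259 to 0.0297). ATG9A (0.28, edgeR adjusted p = 0.0792) passed in 4, among them the fit without MV411 DMSO 3 (0.35, adjusted p = 0.0225). ATG2B passed as lower without MOLM13 DMSO 2 (-0.28, edgeR adjusted p = 0.0245), ATG3 without MV411 SGI-7079 1 (-0.25, adjusted p = 0.00382), and RB1CC1 as higher with both replicate blocks (0.22, adjusted p = 0.0385 to 0.0403).

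**Figure D4:**
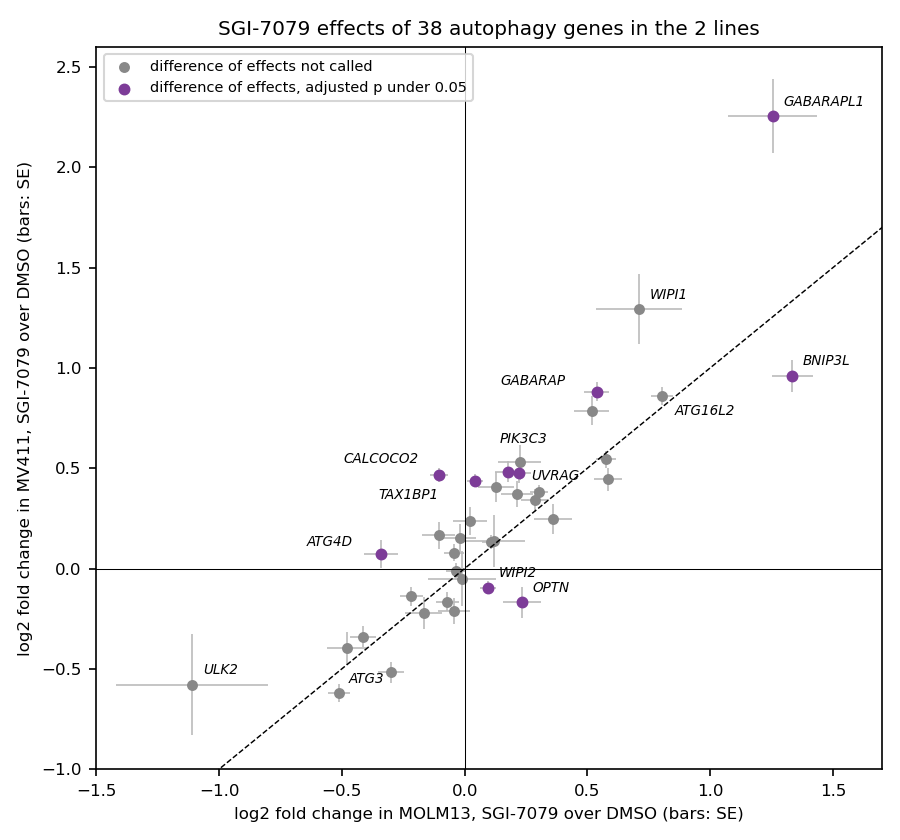
Log2 fold change of SGI-7079 over DMSO in MV411 (vertical axis) against MOLM13 (horizontal axis) for the 38 genes, with SE bars, the dashed line of equal effects, and purple points where the difference of effects had an adjusted p under 0.05. Of the 38 points, 26 lie above the line, and of all 21438 tested genes 10416 had a higher effect in MV411. The median difference of the 38 was 0.08 with all libraries and ran from -0.0057 to 0.093 without 1 library. Purple points above the line include GABARAPL1, GABARAP, CALCOCO2 and TAX1BP1, while BNIP3L, OPTN and WIPI2 lie below.

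In DMSO, the lines already differed in most of these genes. Of the 38, 20 were higher in MV411 than in MOLM13 and 10 lower, where 27.7% and 26.5% of all tested genes were. Libraries did not overlap for 19 higher and 10 lower genes, where 31.2% and 29.8% of all tested genes were so placed. Past an absolute log2 fold change of 1, ULK2, GABARAP and BNIP3L were higher, where 12.9% of tested genes were, and BNIP3 was lower, where 9.57% were. ULK2, from the library values above, differed most, at 10.9 ± 0.958 CPM in MV411 DMSO and 0.794 ± 0.156 CPM in MOLM13 DMSO (SD, n = 3), a log2 fold change of 3.78 ± 0.29 (SE, edgeR adjusted p = 8.25e-08). GABARAP was at 112 ± 0.323 CPM in MV411 DMSO and 52.5 ± 3.04 CPM in MOLM13 DMSO (1.09 ± 0.05, edgeR adjusted p = 4.05e-10). BNIP3L was at 47.8 ± 0.819 CPM in MV411 DMSO and 23.8 ± 3.11 CPM in MOLM13 DMSO (1.01 ± 0.08, edgeR adjusted p = 1.87e-07), while BNIP3 was at 13.0 ± 0.727 CPM and 35.1 ± 0.726 CPM in these groups (-1.43 ± 0.08, edgeR adjusted p = 2.66e-09). The 2 mitophagy receptors thus had opposite orders between the lines, and their summed level was 60.9 ± 0.4 CPM in MV411 DMSO and 58.9 ± 2.93 CPM in MOLM13 DMSO.

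CALCOCO2, NBR1 and ATG13 followed with values of 0.69, 0.64 and 0.64 on the log2 scale, and ATG5, ATG4A and TAX1BP1 were lower in MV411 by -0.60, -0.57 and -0.47, each called (edgeR adjusted p at most 0.00196). GABARAPL1 and WIPI1 did not pass between the lines in DMSO, with log2 differences of -0.14 ± 0.18 and -0.07 ± 0.17 (SE, edgeR adjusted p = 0.559 and 0.774). Of the calls, 8 were lost under some alternative, namely RB1CC1, ATG7, SQSTM1, OPTN, PIK3C3, PIK3R4, ATG3 and ATG12. Per library left out, RB1CC1 (MOLM13 DMSO 1 or 3, MV411 DMSO 2 or 3), ATG7 (MOLM13 DMSO 1 or 2, MV411 DMSO 2 or 3) and SQSTM1 (MV411 DMSO 3) gave 0.15 to 0.20, 0.14 to 0.18 and 0.09 (edgeR adjusted p = 0.0507 to 0.107, 0.0672 to 0.116 and 0.0768). OPTN (MOLM13 DMSO 1, MV411 DMSO 1 or 2), PIK3C3 (MOLM13 DMSO 1 or 3, MV411 DMSO 3) and ATG12 (MOLM13 DMSO 2 or 3, MV411 DMSO 1) gave 0.20 to 0.22, -0.15 to -0.11 and -0.18 to -0.17 (edgeR adjusted p = 0.0617 to 0.0794, 0.0652 to 0.103 and 0.0708 to 0.085).

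**Figure D5:**
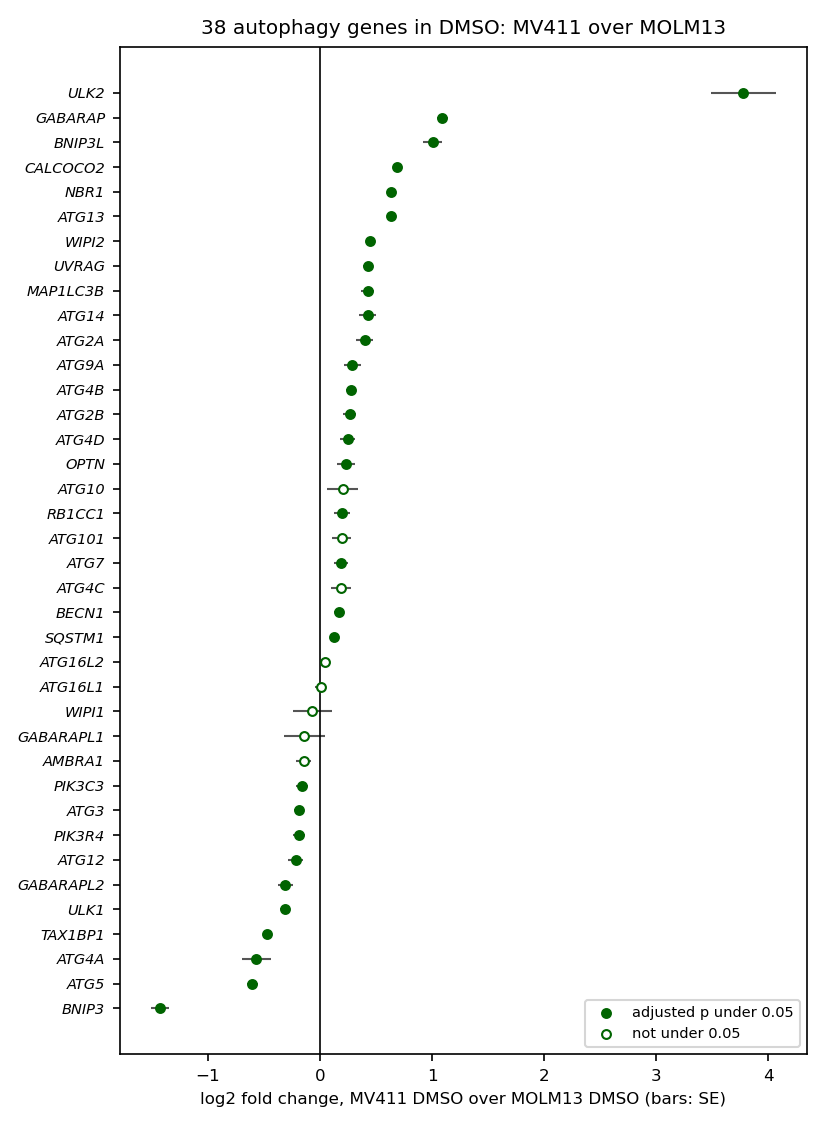
Log2 fold change of MV411 DMSO over MOLM13 DMSO (horizontal axis, SE bars) for the 38 genes in order of size, filled where the adjusted p was under 0.05. ULK2 stands apart at 3.78, GABARAP and BNIP3L follow at 1.09 and 1.01, and BNIP3 lies at the other end at -1.43.

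Per length, GABARAP had the highest level of the 38 genes in every group. SQSTM1 came second in MV411 SGI-7079 (32.0 ± 0.36 FPKM), MOLM13 SGI-7079 (27.8 ± 0.77 FPKM) and MOLM13 DMSO (17.5 ± 0.45 FPKM), and ATG13 did in MV411 DMSO (23.4 ± 0.35 FPKM). In MV411 SGI-7079, CALCOCO2, ATG13 and ATG16L2 at 27.7 ± 0.22, 27.6 ± 0.63 and 27.4 ± 1.07 FPKM did not differ beyond their spread. ULK2 was the lowest in MV411 SGI-7079 (0.733 ± 0.112 FPKM), MOLM13 SGI-7079 (0.033 ± 0.019 FPKM) and MOLM13 DMSO (0.069 ± 0.014 FPKM). In MV411 DMSO the 3 lowest, GABARAPL1 (0.898 ± 0.253 FPKM), ULK2 (1.02 ± 0.09 FPKM) and WIPI1 (1.02 ± 0.156 FPKM), overlapped in their spread.

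Further genes of the pathway and of linked processes were described from 6 other lists. Their counts are to be read against the shares of all tested genes, 27.2% higher and 24.3% lower in MV411 and 23.2% higher and 23.6% lower in MOLM13. Of 37 measured core and fusion genes, 22 rose and 5 fell in MV411, and 21 rose and 4 fell in MOLM13. TP53INP1, a p53-inducible protein that binds ATG8 proteins, rose by 1.18 ± 0.08 in MV411 and 1.85 ± 0.08 in MOLM13 (log2 ± SE, edgeR adjusted p = 2.14e-08 and 5.13e-10). C9orf72 and SMCR8, partners in one complex, rose by 1.36 and 0.56 in MV411 and by 0.39 and 0.37 in MOLM13, each called. The genes that fell were VAMP8, YKT6, EI24, RAB7A and VPS18 in MV411 and YKT6, EI24, RAB7A and WDR41 in MOLM13. EI24, a membrane protein of the endoplasmic reticulum, fell by 1.02 in MV411 and by 0.28 in MOLM13 (edgeR adjusted p = 3.38e-11 and 1.53e-05). YKT6, VAMP8 and RAB7A serve in the fusion of membranes.

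Of 19 other selective autophagy genes, 6 rose and 4 fell in MV411, where 27.2% and 24.3% of all tested genes did. In MOLM13 5 rose and 3 fell, where 23.2% and 23.6% did, so that these counts lie near the background. CALCOCO1, a receptor for the endoplasmic reticulum and Golgi and a paralog of CALCOCO2, was at 109 ± 1.28 CPM in MV411 SGI-7079 and 27.2 ± 0.501 CPM in MV411 DMSO, and at 73.3 ± 0.622 CPM in MOLM13 SGI-7079 and 23.9 ± 0.821 CPM in MOLM13 DMSO (SD, n = 3). Its log2 fold changes of 2.00 ± 0.04 and 1.62 ± 0.04 (SE) had edgeR adjusted p = 1.04e-13 and 2.5e-12. NCOA4, the ferritin receptor, RETREG3 and BCL2L13 also rose in both lines, WDFY3 in MV411 and NIPSNAP1 in MOLM13. TEX264, NIPSNAP2 and PHB2 fell in both lines and FKBP8 in MV411.

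Among 31 genes of the mTORC1, AMPK and TFEB control of autophagy, 16 rose and 8 fell in MV411, and 16 rose and 6 fell in MOLM13, the falls being near the shares of all tested genes (24.3% and 23.6%). TFEB, a transcription factor of lysosomal and autophagy genes, rose by 1.16 ± 0.06 in MV411 and 0.79 ± 0.06 in MOLM13 (log2 ± SE, edgeR adjusted p = 1.14e-09 and 7.75e-08). MTOR, the kinase of mTORC1, fell by 0.50 and by 0.40 (edgeR adjusted p = 8.42e-08 and 1.03e-06), and DEPTOR, an inhibitor of that kinase, rose by 1.66 and 1.71 in MV411 and in MOLM13 (edgeR adjusted p = 3.71e-07 and 8.56e-07). SESN1, a Sestrin, fell by 0.47 in MV411 and rose by 0.37 in MOLM13 (edgeR adjusted p = 5.28e-07 and 5.36e-06), with a difference of effects of -0.84 ± 0.06 (adjusted p = 6.96e-07).

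Of 23 lysosome genes, 15 rose and 6 fell in MV411 (27.2% and 24.3% of all tested genes), and 16 rose and 3 fell in MOLM13 (23.2% and 23.6% of all tested genes), the 3 being MCOLN1, ATP6V1B2 and ATP6V0E1. PSAP, the precursor of the saposins, rose by 1.499 in MV411 and 1.20 in MOLM13, and the protease CTSD and the peptidase TPP1 rose by 0.94 and 0.61 in MV411 and by 0.58 and 0.88 in MOLM13 (edgeR adjusted p at most 3.63e-09). Of 18 tested HIF target genes, a set that BNIP3 and BNIP3L belong to, 7 rose and 6 fell in each line, where 27.2% and 24.3% of all tested genes did in MV411 and 23.2% and 23.6% in MOLM13. BHLHE40, KDM3A and NDRG1 rose by 1.25, 0.40 and 0.43 in MV411 and by 0.76, 0.44 and 0.49 in MOLM13, and SLC2A1 fell by 0.57 and by 0.24.

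Of 17 NRF2 target genes, a set to which SQSTM1 is linked, 9 rose and 5 fell in MV411, and 5 rose and 9 fell in MOLM13, the 5 in each case being near the share of all tested genes (24.3% lower in MV411, 23.2% higher in MOLM13). FTH1, the ferritin heavy chain, rose by 0.89 in MV411 and 0.98 in MOLM13 and HMOX1, haem oxygenase, by 2.52 and 1.71. TKT, a transketolase, rose by 0.63 in MV411 and fell by 0.12 in MOLM13, and the cystine transporter gene SLC7A11 rose by 2.15 in MV411 and fell by 1.52 in MOLM13 (edgeR adjusted p = 4e-09 and 1.93e-07). NQO1, GCLM, TXNRD1, SRXN1 and TALDO1 fell in both lines, and GCLC and FTL rose in both.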

How the data were processed

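RNA was sequenced in 12 libraries after oligo(dT) selection with a strand-marking (dUTP) kit, per the labels' protocols. The authors deposited a table of raw read counts per gene and of FPKM for 36041 genes on hg38. Per the submitters' processing notes, reads were handled with HISAT2 2.2.1 and cutadapt 1.9, and edgeR, DESeq2 and StringTie 2.1.6 are also listed, and the series' design text names featureCounts for the counts. The strand setting and the handling of reads that match several genes are not given in the sources used here.

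From the deposited counts, 21438 genes passed edgeR's filterByExpr (minimum count 10). All 12 libraries entered 1 quasi-likelihood model (edgeR 4.0.16 in R 4.3.3, TMM scaling) with a term per group, and p-values were adjusted by Benjamini-Hochberg over all genes tested at a threshold of 0.05. Every adjusted p in the text is edgeR's unless another tool is named. CPM used TMM-scaled library sizes. Each SE was taken as |log2 fold change| over the root of its F statistic. Alternatives were DESeq2 size factors, upper-quartile scaling, no filter, a filter at 1 CPM in 3 libraries, DESeq2 1.42.0, limma 3.58.1 on log2(FPKM + 0.1), only the libraries compared, 2 replicate blocks and each library left out. The procedure was tried on simulated data with changes planted in MOLM13 SGI-7079 libraries alone, larger than most reported here. Smaller changes and the other comparisons were not tried in this way. The deposited FPKM served for levels between genes. Exon overlaps came from GENCODE 44, which holds 35731 of the 36041 identifiers.

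The 38 genes and all other lists were chosen with earlier results of these data known. Library values are given for genes past a log2 fold change of 1, for the largest differences between lines and in DMSO, and for the smallest adjusted p of each role. ATG3, PIK3R4, TAX1BP1, OPTN and WIPI2 were added after their values were seen. From each other list, the genes with the smallest adjusted p are named, as are those behind counts of 5 or fewer. Some genes that this rule would name are not reported here.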

Additional observations from a re-analysis of the deposited data

Results flagged for a closer look

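The effect of SGI-7079 differed between the lines for 10 of the 38 genes by the test of the difference itself (edgeR, MV411 minus MOLM13, log2 scale, 3 libraries a group). Of these, 7 were higher in MV411, where 8.85% of all tested genes were, and 3 lower, where 11.8% were. Under every alternative, 4 of the 7 and 1 of the 3 held. ATG4D, PIK3C3, UVRAG, OPTN and BNIP3L were lost under some. The difference was 1.00 for GABARAPL1, 0.57 for CALCOCO2, 0.41 for ATG4D, 0.40 for TAX1BP1, 0.34 for GABARAP, 0.31 for PIK3C3 and 0.25 for UVRAG. It was -0.40 for OPTN, -0.37 for BNIP3L and -0.19 for WIPI2. CALCOCO2 and WIPI2 had called effects of opposite sign in the lines. The MOLM13 call of CALCOCO2 and both calls of WIPI2 were lost under some alternatives.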

How the results depend on the processing

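Of the calls on the 38 genes, 17 of 20 higher and 4 of 9 lower in MV411, 12 of 18 higher and 5 of 8 lower in MOLM13, 4 of 7 higher and 1 of 3 lower for the difference of effects, and 16 of 20 higher and 6 of 10 lower between the lines in DMSO held under every alternative. Genes lower in MV411 numbered 4 with upper-quartile scaling and 5 with limma on FPKM, against 9. With limma on FPKM, genes lower in MOLM13 numbered 5, against 8, and genes lower in MV411 DMSO 6, against 10. WIPI2 in MV411 turned to 0.0122 with limma on FPKM (adjusted p = 0.767). Leaving out 1 library gave 17 to 21 higher and 6 to 11 lower genes in MV411, 14 to 18 and 7 to 8 in MOLM13, 4 to 9 and 2 to 5 for the difference, and 18 to 21 and 8 to 10 in DMSO. Without 1 library, the median difference of effects, 0.08 with all, ran from -0.0057 to 0.093, and without the filter it was 0.019. It was -0.0027, -0.0057, -0.0013 and -0.0054 without MOLM13 DMSO 3, MOLM13 SGI-7079 3, MV411 DMSO 1 and MV411 SGI-7079 1. In 9 of the 12 fits without 1 library the TMM reference library changed and the median of all genes in MV411 was 0.030 to 0.056, against 0.114. After each group's mean was subtracted from the log2 CPM, same-numbered libraries of a line correlated at 0.003 to 0.041. Libraries of other numbers correlated at -0.046 to 0.030, and 7 of 12 libraries correlated best with their own number. These values are small, and with 3 libraries a group a weak pairing cannot be told from none. With the replicate block, 21 genes rose and 10 fell in MV411, 17 rose and 8 fell in MOLM13, 10 and 2 were called for the difference and 20 and 11 in DMSO. With the replicate block within line, 21 and 8, 16 and 8, and 9 and 3 were called. The shares of all tested genes called with the blocks, with limma on FPKM and without 1 library are not given here. A changed count in those fits can therefore not be told from a general change in calls. The causes were not tested. Depth limits ULK2 in MOLM13, at 11 to 49 counts a library.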
